A study of Mus musculus with 6 samples.

Results

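The proteasome genes of mouse chondrocytes, the cells that build and keep cartilage, were followed in 6 bulk RNA-seq libraries. Members were taken by symbol, as every gene in the count table named Psma, Psmb, Psmc or Psmd followed by digits alone. This gave 38 of 23867 genes, and all 38 passed the filter on low counts. The comparison is between 3 libraries with the genotype label MFN2wt (wild type) and 3 with the label MFN2Col2a1-/- (knockout). That label joins Mfn2, a mitofusin that fuses the outer membranes of mitochondria, to Col2a1, the main cartilage collagen. The knockout columns carry the names CRE1, CRE2 and CRE3, and the wild-type columns WT1, WT2 and WT3. Both groups consisted of untreated chondrocytes as far as the labels say. The labels give no age, Cre promoter, pooling or culture history, and no statement ties each library to its own animal or culture. All p-values thus reflect the spread among these 6 libraries alone, which may be technical.

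The proteasome is the protease that degrades proteins tagged with ubiquitin. Its core particle is a barrel of alpha rings, which gate entry, and beta rings, which carry the catalytic sites. A regulatory cap sits on the barrel: its ATPases unfold substrates and open the gate, and its non-ATPase subunits bind ubiquitin and remove it. Interferon induces 3 replacement beta subunits, Psmb8, Psmb9 and Psmb10, which take the places of Psmb5, Psmb6 and Psmb7 to form the immunoproteasome. Cells of blood lineage carry these immune subunits at higher levels than stromal cells, and they change which peptides reach MHC class I. The transcription factors Nfe2l1 and Nfe2l2 are known to raise proteasome genes through antioxidant response elements.

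Knockout columns summed to 31481779 to 37814723 counts, and wild-type columns to 39267487 to 40152687. Levels are in CPM after TMM scaling, which equalizes libraries on the bulk of their genes. Each log2 fold change sets the knockout over the wild type and carries its standard error (SE). Genes with an adjusted p under 0.05 (Benjamini-Hochberg, 15028 tested genes) in edgeR's quasi-likelihood test count as called. Mfn2 was lower in each knockout library, at 64.0, 56.5 and 59.4 CPM against 108, 108 and 106 CPM (log2 fold change −0.84, SE 0.046). All 11 chondrocyte markers were present and fell, with Col2a1 at 492 to 543 CPM in knockout libraries against 3339 to 3477 CPM in wild-type libraries. All 16 macrophage markers fell too (median log2 fold change −4.55), and all 8 markers of dividing cells fell (median −2.38). Of 9 tested fibroblast markers 4 rose and 4 fell, and all 10 in the table summed to 28123 to 29029.6 CPM against 22331 to 22525 CPM. Among them Dcn, a matrix proteoglycan, rose by 1.68 and Postn, a matrix protein, fell by 1.13 on the log2 scale. Of 4 tested endothelial markers 2 rose and 1 fell, and all 7 in the table summed to 9.93 to 10.6 CPM against 3.19 to 5.35 CPM. Most of that sum was Plvap, at 9.01 to 9.31 CPM in knockout libraries and 1.97 to 4.19 CPM in wild-type libraries. Kdr was the one that fell, by 2.50 on the log2 scale. The part of these cell types in the differences of proteasome genes was not tested. In bulk samples, fewer cells of a type and less RNA per cell cannot be told apart.

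Most proteasome genes differed little between the groups, and a few stood clearly apart. With TMM scaling 23 of the 38 members rose, 2 fell and 13 were not called. Of all tested genes 62.7% were called, 30.7% higher and 32.1% lower. That tilt depended on the scaling: with total counts alone, 5 members rose and 15 fell, against 18.6% and 50.8% of all tested genes. The members' median log2 fold change was 0.14 with TMM, where that of all tested genes was −0.021. With total counts alone the median of all genes moved by −0.21, and the members' median was −0.068. The distance between the 2 medians was 0.16 under both scalings. A change of scaling moves every gene by nearly the same amount, so that distance was bound to stay and tests nothing. It was 0.10 and 0.12 in fits on log2 FPKM with a filter on low values, and −0.043 in such a fit without the filter. As a share of all counts, the 38 genes together took 0.326% ± 0.00269 in knockout libraries and 0.326% ± 0.00268 in wild-type libraries (SD, n = 3 libraries each; exact two-sided permutation test, p = 1). Without Psmd8, a choice made after its value was seen, the other 37 took 0.293% ± 0.00239 and 0.306% ± 0.00250. Only 5 of the 23 rises, those of Psmd8, Psmd5, Psmd10, Psmd4 and Psma7, and 1 of the 2 falls, that of Psmb9, held in every other setting tried. Of the 23 rises, 7 were lost when some single library was left out. The groups did not overlap for 29 members, against 67.1% of all tested genes. The knockout lay above for 24 members and below for 5, against 32.3% and 34.8% of all tested genes.

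**Figure D1:**
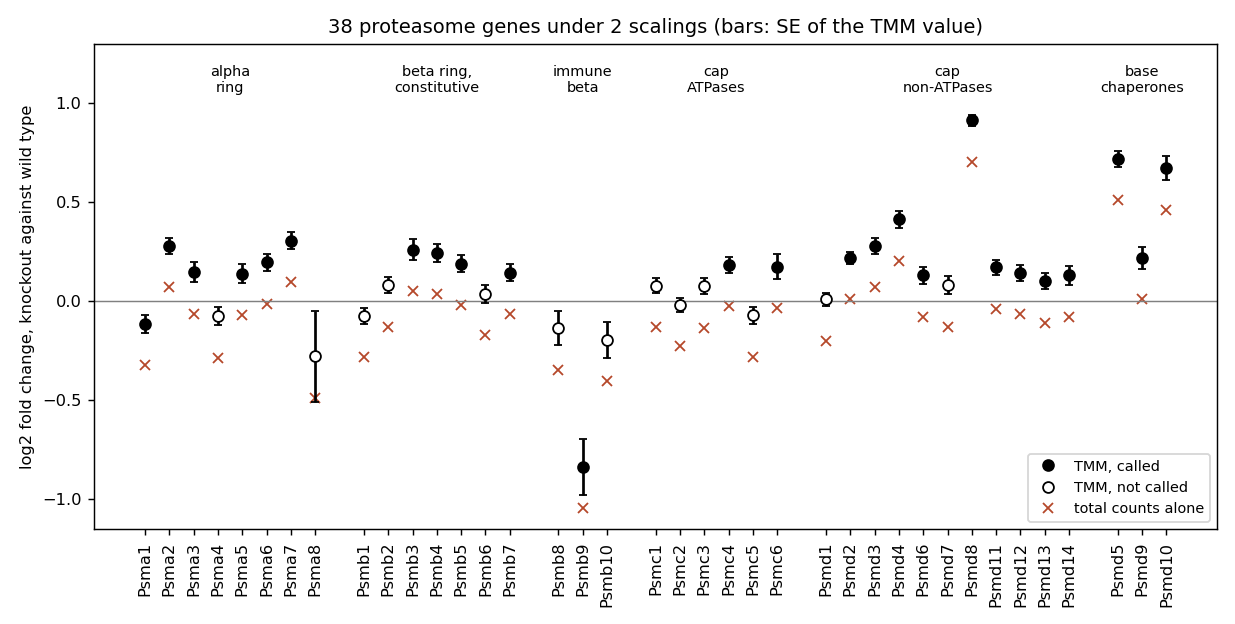
Log2 fold change of each of the 38 proteasome genes (vertical axis), grouped by role along the horizontal axis. Circles are TMM values with SE bars, filled where called, and crosses are values from total counts alone; most crosses lie at or below 0, while Psmd8, Psmd5 and Psmd10 stay high and Psmb9 stays low.

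Levels per length, in FPKM, showed a broad plateau of constitutive subunits and a low tier that held the immune subunits, Psma8 and the chaperone Psmd9. The 7 constitutive beta subunits had mean FPKM values from 70.7 (Psmb6) to 115 (Psmb1) in the wild type and from 62.8 (Psmb6) to 118 (Psmb4) in the knockout. Among alpha subunits Psma2 was highest, at 105 ± 3.36 FPKM in the wild type and 110 ± 4.29 FPKM in the knockout. Psma8, an alpha subunit known from male germ cells, was lowest of all members, at 0.942 ± 0.125 and 0.674 ± 0.0854 FPKM. In the cap the highest level was that of Psmd8, at 135 ± 1.58 FPKM in the wild type and 221 ± 2.26 FPKM in the knockout. The lowest cap subunit was Psmd11, at 26.6 ± 0.555 and 25.9 ± 0.189 FPKM. The immune subunits stood at 13.4 ± 0.555 (Psmb8), 8.30 ± 0.0849 (Psmb10) and 4.47 ± 0.307 FPKM (Psmb9) in the wild type, and Psmd9 at 10.9 ± 0.365 FPKM. These levels use 1 deposited length per gene, so a gene with a long annotated model, such as Psma3 at 3325 bases, reads low if its shorter transcripts dominate.

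**Figure D2:**
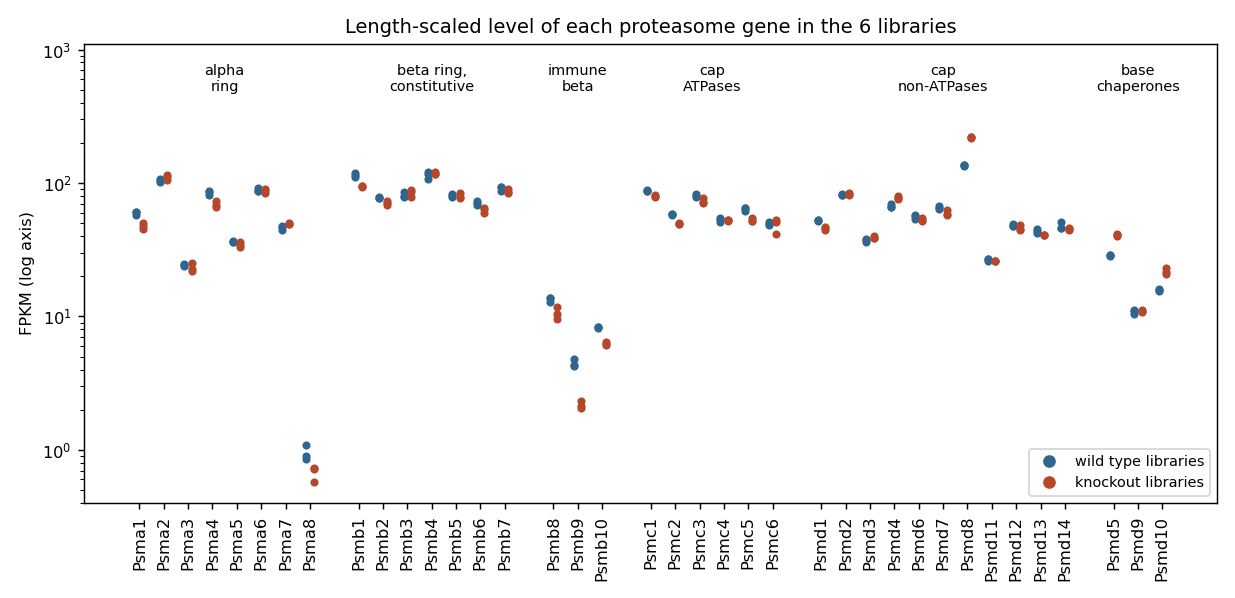
FPKM (log axis) of each proteasome gene in the 3 wild-type libraries (blue) and the 3 knockout libraries (red), by role. The immune subunits, Psma8 and Psmd9 lie below the other members in both groups, and Psmd8 in the knockout is the highest point of the set.

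The alpha ring was mixed: with TMM 5 of its 8 genes rose and 1 fell, beside 30.7% and 32.1% of all tested genes. Its median log2 fold change was 0.14, while with total counts alone Psma3, Psma5 and Psma6 took the opposite sign. Psma7 stood at 86.5, 83.8 and 84.9 CPM in CRE1 to CRE3 and at 69.4, 66.0 and 70.9 CPM in WT1 to WT3. Every knockout library lay above every wild-type library, a 1.24-fold rise (log2 fold change 0.31, SE 0.042, adjusted p = 1.07e-05). With total counts alone it was still called, at 0.097 (adjusted p = 0.0472). Psma2 read 117, 112 and 107 CPM in knockout libraries and 92.6, 89.0 and 94.8 CPM in wild-type libraries (0.28, SE 0.042, adjusted p = 2.82e-05). Its groups were separate too, but with total counts alone its value was 0.071 and not called (adjusted p = 0.139). Psma6 read 108, 105 and 99.0 CPM against 90.05, 93.4 and 88.6 CPM (0.20, SE 0.042, adjusted p = 7.67e-04), and −0.013 with total counts alone.

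Psma1 was the alpha subunit that fell, at 61.7, 67.4 and 64.1 CPM against 70.5, 67.7 and 70.8 CPM (−0.11, SE 0.045, adjusted p = 0.0412). CRE2 and WT2 nearly touched, and the call was lost without CRE1 (adjusted p = 0.136), CRE3 (0.128), WT1 (0.114) or WT3 (0.117). Psma3 rose by 0.15 and Psma5 by 0.14. The call of Psma3 was lost without CRE1 (0.0532) or WT2 (0.0624), and that of Psma5 without CRE3 (0.0653), WT2 (0.0588) or WT3 (0.0589). Psma4, at −0.075 (SE 0.047), was not called with TMM in all 6 libraries, but was without CRE1 (−0.11, adjusted p = 0.0173) and with total counts alone (−0.28). Psma8 had the lowest fold change of the class, at 1.75, 1.38 and 1.76 CPM against 1.88, 1.78 and 2.27 CPM. Every knockout library was lower, but it held only 49 to 98 counts per library and was not called (−0.28, SE 0.230), so a change of that size was not detectable at this depth.

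Of the 7 constitutive beta subunits 4 rose with TMM and none fell, beside 30.7% and 32.1% of all tested genes. Their median log2 fold change was 0.15, while with total counts alone Psmb2, Psmb5, Psmb6 and Psmb7 took the opposite sign. Psmb4, a structural beta subunit, stood at 124, 118 and 118 CPM in knockout libraries and at 94.8, 104 and 106 CPM in wild-type libraries (0.25, SE 0.044, adjusted p = 1.83e-04). Psmb3, also non-catalytic, read 70.0, 61.2 and 67.0 CPM against 58.0, 54.2 and 53.1 CPM (0.26, SE 0.054, adjusted p = 5.87e-04). Both pairs of groups were separate, yet with total counts alone the values were 0.036 and 0.052, and neither was called. Psmb1, another structural subunit, went slightly the other way, at 107, 103 and 105 CPM against 108, 110 and 115 CPM. Its knockout libraries all lay lower, but the difference was not called with TMM (−0.074, SE 0.038, adjusted p = 0.104) and was called with total counts alone (−0.28). Psmb2 was not called with TMM in all 6 libraries (0.082, SE 0.042). It was called higher without CRE3 (0.12, adjusted p = 0.0499) and lower with total counts alone (−0.13, adjusted p = 0.0145).

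The catalytic subunits of the constitutive core are Psmb5 (cleavage after hydrophobic residues), Psmb6 (after acidic residues) and Psmb7 (after basic residues). Psmb5 stood at 73.0, 78.7 and 73.8 CPM in CRE1 to CRE3 and at 66.3, 64.0 and 67.5 CPM in WT1 to WT3 (0.19, SE 0.044, adjusted p = 0.00153). The groups were separate, with CRE2 highest, but the value was −0.019 with total counts alone. Psmb6 read 78.9, 76.2 and 72.3 CPM against 71.0, 73.8 and 76.8 CPM, and the groups overlapped (0.037, SE 0.046, adjusted p = 0.503). With total counts alone Psmb6 was called lower (−0.17, adjusted p = 0.00397). Psmb7 read 104, 97.3 and 96.2 CPM against 85.8, 91.6 and 91.4 CPM (0.15, SE 0.043, adjusted p = 0.00870). Its rise was lost without WT1 (0.11, adjusted p = 0.0614), the lowest wild-type library.

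The upstream sequences of Psmb5 and Psmb6 are shown because both hold the letters TGACNNNGC (any base at N), the core of the antioxidant response element. They come from RefSeq, build GRCm38.p6, 5′ to 3′ on the strand of the gene, with that motif in capitals. The build differs from the GRCm39 named for the counts, and its coordinates apply to these sequences only. Stretches end at the gene's start for Psmb6 (chr11:70525107-70525356, plus strand) and 27 bases before it for Psmb5 (chr14:54618023-54618245, minus strand).
Psmb5: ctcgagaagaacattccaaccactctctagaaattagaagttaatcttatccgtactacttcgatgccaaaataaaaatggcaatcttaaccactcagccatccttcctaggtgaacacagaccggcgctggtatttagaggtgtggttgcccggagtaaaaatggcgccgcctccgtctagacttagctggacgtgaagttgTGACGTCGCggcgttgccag
Psmb6: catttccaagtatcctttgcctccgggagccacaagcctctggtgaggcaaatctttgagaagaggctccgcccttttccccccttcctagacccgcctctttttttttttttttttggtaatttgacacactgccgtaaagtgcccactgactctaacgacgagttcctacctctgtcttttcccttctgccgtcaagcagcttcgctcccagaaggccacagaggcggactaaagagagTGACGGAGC
The motif begins 47 bases before the start of Psmb5 and 9 bases before that of Psmb6. Among 31 members with a RefSeq entry, 5 held it on either strand within 250 bases before a start (Psmb5, Psmb6, Psmc6, Psmd9 and Psmd12), or 16.1%, against 10.2% of all 32851 windows of that length. None of the 5 members whose rise held in every setting was among them. At a share of 10.2% of all windows, that says only that these letters are not in their windows. Psma8, Psmb1, Psmb2, Psmb7, Psmc3, Psmd3 and Psmd7 were not among the 31.

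The 3 immune subunits were all lower in mean level in the knockout. With TMM only Psmb9 was called, beside 32.1% of all tested genes called lower. Psmb9 stood at 2.85, 3.16 and 2.93 CPM in CRE1 to CRE3 and at 5.07, 5.19 and 5.74 CPM in WT1 to WT3. The groups were far apart, a 1.78-fold fall (log2 fold change −0.84, SE 0.141, adjusted p = 9.34e-05), and the fall was called in all 18 other settings. It rested on 83 to 112 counts per knockout library and 216 to 248 per wild-type library. Psmb10 read 8.87, 8.31 and 8.55 CPM against 9.90, 9.69 and 9.83 CPM. Every knockout library was lower, but the difference was not called with TMM (−0.19, SE 0.090, adjusted p = 0.0733) and was called with total counts alone (−0.40). Psmb8 read 15.6, 13.6 and 12.5 CPM against 14.5, 15.6 and 15.5 CPM, with CRE1 as high as the wild type (−0.14, SE 0.087, adjusted p = 0.189). Without CRE1 it was called lower (−0.22, adjusted p = 0.0334), as it was with total counts alone (−0.34).

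The ratio of an immune subunit to the subunit it replaces does not depend on library scaling, and it was lower in every knockout library for all 3 pairs. Psmb9 reached 3.17%, 3.64% and 3.55% of the FPKM of Psmb6 in CRE1 to CRE3 and 6.26%, 6.16% and 6.55% in WT1 to WT3. The log2 ratio of their counts differed by −0.87, a 1.83-fold lower ratio in the knockout. Psmb10 reached 7.11%, 7.11% and 7.39% of Psmb7 against 9.60%, 8.81% and 8.96%, a difference of −0.34 in the log2 ratio. Psmb8 reached 15.2%, 12.3% and 12.1% of Psmb5 against 15.6%, 17.4% and 16.4%, a difference of −0.33. CRE1 lay close to WT1 in that pair, and without CRE1 the difference was −0.44. The exact two-sided permutation test over the 6 libraries gave p = 0.1 for each pair, also after adjustment over the 3 pairs, which is the smallest value that 3 against 3 can give. The summed immune counts took 0.00237% ± 0.000150 of all counts in knockout libraries and 0.00326% ± 9.34e-05 in wild-type libraries (SD, n = 3 each). Its exact permutation test gave p = 0.1, or 0.117 adjusted over 7 shares, those of the classes and of all members together.

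**Figure D3:**
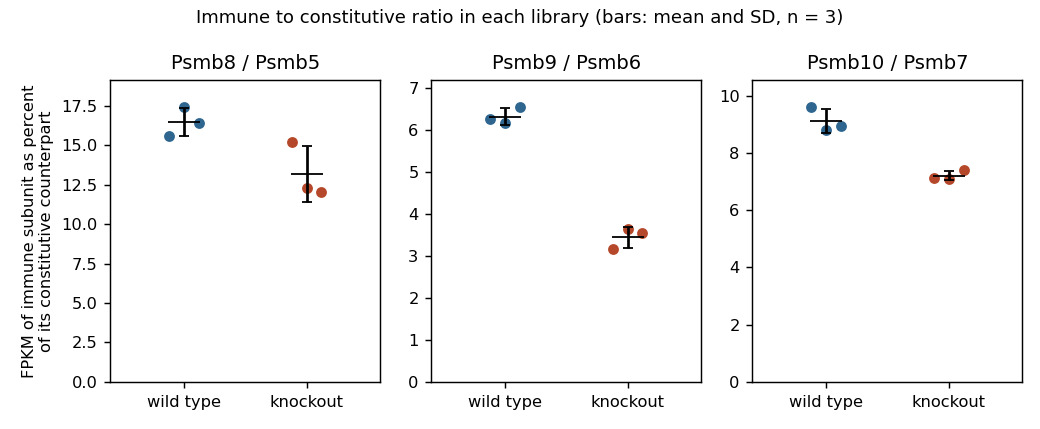
FPKM of Psmb8, Psmb9 and Psmb10 as a percent of Psmb5, Psmb6 and Psmb7 (vertical axes, from 0), in each library (points), with mean and SD bars over 3 libraries. All knockout points lie below all wild-type points in each panel, with the smallest gap between CRE1 (15.2%) and WT1 (15.6%) for Psmb8 over Psmb5.

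Markers of macrophages, which carry immune subunits at high levels, were lower in the knockout. All 16 genes of the list were called lower, and their summed level was 330.3 to 342 CPM in knockout libraries and 3060 to 3083 CPM in wild-type libraries. Adgre1, which encodes F4/80, read 20.3 to 23.3 CPM against 180.01 to 186 CPM, and Cx3cr1 read 0.0565 to 0.137 CPM against 8.36 to 9.03 CPM. Aif1 was at 0 in CRE3. The part of these cells in the lower immune subunits was not tested. Of the lymphocyte and neutrophil markers, 8 of 11 symbols were in the table and 3 passed the filter, with a summed level of 5.82 to 6.57 CPM in knockout libraries and 0.440 to 1.06 CPM in wild-type libraries.

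Genes that induce immune subunits or load their peptides split. Among 10 tested inducers 4 rose (40%) and 5 fell (50%), beside 30.7% and 32.1% of all tested genes. Irf8, a transcription factor of myeloid cells, fell to 0.412, 0.339 and 0.499 CPM from 13.7, 13.1 and 13.9 CPM, and Tnf, a cytokine, fell 11.3-fold. The kinase Jak1, which acts below cytokine receptors, rose by 0.60. Among 7 genes of peptide transport and MHC class I, 3 rose and 3 fell. H2-K1, an MHC heavy chain, stood at 1686, 1665 and 1636 CPM against 696, 705 and 722 CPM, a rise of 1.23. Also higher were Tapbp, which holds it to the peptide transporter, by 0.66, and B2m, its light chain, by 0.37. The 3 that fell were the transporter genes Tap1 (−0.50) and Tap2 (−0.61) and another MHC heavy chain, H2-D1 (−0.12). All 3 are named after their values were seen. Tap1 lies head to head with Psmb9 on the opposite strand, and in GENCODE M21 they share 212 exonic bases of the 3660 annotated for Psmb9. The deposited FPKM of Psmb9 uses a shorter length, 1281 bases, and how much of the overlap that length holds is not known. The strand setting of the counting is not given in the sources used here, so reads in the shared bases could have been left out or assigned to either gene.

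Psmb8 was the 1 member among the 31 whose window held TTCNNNGAA, the letters of a gamma-activated site, against 7.02% of all windows. The site is printed with 10 flanking bases because it lies in an annotated UTR, with the motif in capitals and its first base 97 bases before the start (chr17:34198088-34198116, plus strand, GRCm38.p6).
Psmb8: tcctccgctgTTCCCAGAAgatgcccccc
No match in the windows of Psmb9 and Psmb10 says only that these letters are not there.

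The 6 ATPases of the cap, which form the ring that unfolds substrates, had the lowest median of the constitutive classes with both scalings, though the difference between classes was not tested. With TMM 2 rose (33.3%, beside 30.7% of all tested genes) and none fell, beside 32.1% (median log2 fold change 0.078). With total counts alone none rose and 4 fell (median −0.13), beside 18.6% and 50.8% of all tested genes. There Psmc1, Psmc3, Psmc4 and Psmc6 took the opposite sign. Psmc4 stood at 82.1, 81.1 and 79.6 CPM in knockout libraries and at 68.7, 73.0 and 71.8 CPM in wild-type libraries (0.19, SE 0.041, adjusted p = 0.00103). It was the ATPase with separate groups among those called. Psmc6 read 105, 132 and 129 CPM against 106, 108 and 111 CPM (0.18, SE 0.064, adjusted p = 0.0266). CRE1 fell among the wild-type libraries, and the call was lost without CRE2 (adjusted p = 0.102), CRE3 (0.0621), WT1 (0.0988) or WT2 (0.0639). Psmc1 read 131, 125 and 132 CPM against 125, 121 and 121 CPM (0.080, SE 0.036, adjusted p = 0.0685) and was called only without CRE2 (0.12, adjusted p = 0.0321) among the libraries left out. Psmc5 had the lowest value, at 71.3, 74.1 and 71.1 CPM against 77.9, 72.7 and 76.8 CPM, with overlapping groups (−0.071, SE 0.043). Psmc2 (−0.018) and Psmc3 (0.077) were not called with TMM. The 4 called lower with total counts alone were Psmc1 (−0.13), Psmc2 (−0.23), Psmc3 (−0.13) and Psmc5 (−0.28).

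Among the 11 non-ATPase subunits of the cap, 9 rose with TMM and none fell, beside 30.7% and 32.1% of all tested genes. Their median log2 fold change was 0.14, while with total counts alone Psmd1, Psmd6, Psmd7, Psmd11, Psmd12, Psmd13 and Psmd14 took the opposite sign. Psmd8, a subunit of the lid that joins late in its assembly, stood at 363, 359 and 355 CPM in CRE1 to CRE3 and at 189, 191 and 192 CPM in WT1 to WT3. The libraries of a group were nearly alike and the groups far apart, a 1.88-fold rise (0.91, SE 0.029, adjusted p = 2.53e-13). With total counts alone the value was 0.71. Psmd4, a receptor that holds ubiquitin chains, read 115, 108 and 110 CPM against 81.6, 86.6 and 81.9 CPM, a 1.33-fold rise (0.41, SE 0.041, adjusted p = 3.10e-07), and 0.20 with total counts alone. Psmd2, a large base scaffold that docks ubiquitin shuttles, read 300.5, 287 and 296 CPM against 253, 249 and 256 CPM (0.22, SE 0.030, adjusted p = 1.16e-05). Its groups were separate, but its value was 0.012 with total counts alone and not called.

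The other base scaffold, Psmd1, had the lowest value of this class, at 157, 163 and 162 CPM against 158, 161 and 158 CPM. Its groups overlapped (0.011, SE 0.033, adjusted p = 0.797), and with total counts alone it was called lower (−0.20). The remaining lid subunits had log2 fold changes from 0.081 (Psmd7, not called) to 0.28 (Psmd3). Psmd14, the deubiquitinase that cuts chains from substrates, rose by 0.13 (SE 0.047, adjusted p = 0.0244), a call lost without WT1 (adjusted p = 0.113) or WT2 (0.115). Psmd6 (0.13) lost its call without WT2 (0.0802). Psmd13 (0.10) lost it without CRE1 (0.0535), CRE2 (0.0603), CRE3 (0.0520), WT1 (0.0922) or WT2 (0.188). With total counts alone Psmd7 (−0.13) and Psmd13 (−0.11, adjusted p = 0.0322) were called lower, for Psmd13 against its call with TMM.

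As a share of all counts the class took 0.140% ± 0.000553 in knockout libraries and 0.130% ± 0.000855 in wild-type libraries, and without Psmd8 0.107% ± 0.000438 and 0.110% ± 0.000621. Leaving Psmd8 out turned the direction of that share. The shares of the alpha ring (0.0547% ± 0.00138 against 0.0578% ± 0.00107), the constitutive beta ring (0.0565% ± 0.00104 against 0.0600% ± 0.00146) and the ATPases (0.0585% ± 0.00111 against 0.0642% ± 0.000408) were lower in the knockout (SD, n = 3 each). Each of these class shares gave p = 0.1 in the exact permutation test. For the full classes that was 0.117 adjusted over 7 shares, those of the classes and of all members together.

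The 3 chaperones that assemble the cap base, Psmd5, Psmd9 and Psmd10, all rose with TMM, beside 30.7% of all tested genes. Their median log2 fold change was 0.67, and all 3 kept a positive value with total counts alone. Psmd5, which holds base intermediates until they meet the core, stood at 92.2, 87.7 and 90.4 CPM in knockout libraries and at 55.0, 54.8 and 54.3 CPM in wild-type libraries. That is a 1.65-fold rise with no overlap (0.72, SE 0.040, adjusted p = 3.02e-10), and 0.51 with total counts alone. Psmd10, also called gankyrin and known to bind the retinoblastoma protein, read 36.4, 33.3 and 32.4 CPM against 21.4, 21.7 and 20.9 CPM. It rose 1.59-fold (0.67, SE 0.059, adjusted p = 7.66e-08), with CRE1 highest, and read 0.46 with total counts alone. Psmd9 read 31.1, 30.0 and 30.4 CPM against 27.1, 26.3 and 25.2 CPM (0.22, SE 0.054, adjusted p = 0.00251), but its value was 0.010 with total counts alone and not called. The summed share of the 3 genes was 0.0144% ± 0.000333 of all counts in knockout libraries and 0.0110% ± 0.000157 in wild-type libraries (exact permutation p = 0.1).

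**Figure D4:**
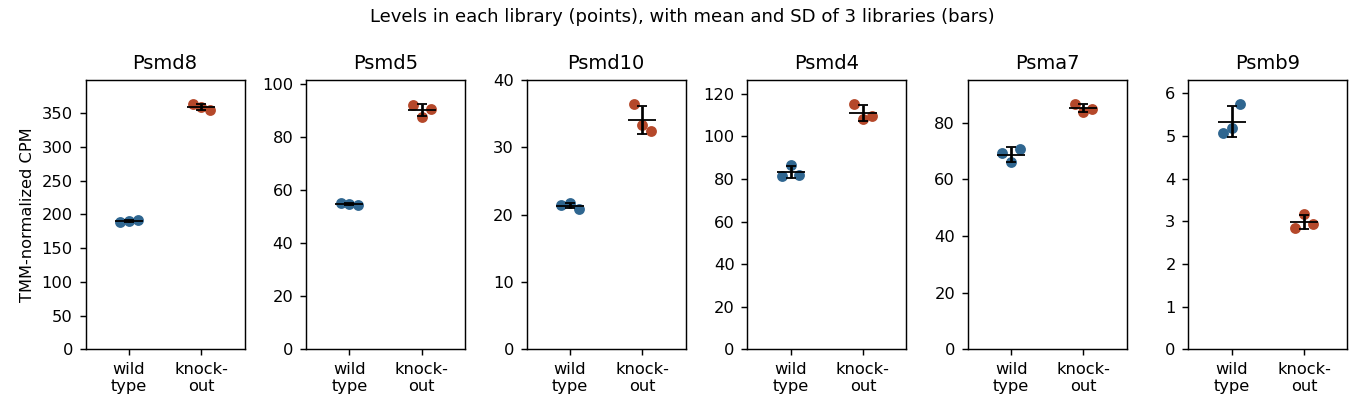
TMM-normalized CPM (vertical axes, from 0) in each library of the 6 members whose call held in all settings tried, with mean and SD bars over 3 libraries. Psmd8, Psmd5, Psmd10, Psmd4 and Psma7 are higher and Psmb9 is lower in every knockout library.

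The upstream sequences of Psmd4, Psmd5 and Psmd8 are shown as those of the largest rise in the cap (Psmd8), the largest among its chaperones (Psmd5) and the next cap subunit (Psmd4). All 3 rises held in every setting, and these windows held none of the antioxidant response element letters. In capitals are matches on either strand to CCAAT, the box bound by NF-Y, and to a core interferon regulatory factor motif (GAAA, any 2 bases, GAAA), which do not overlap here. They are 250 bases to the start of Psmd4 (chr3:95042615-95042864) and of Psmd5 (chr2:34870963-34871212), and 222 bases that end 28 before the start of Psmd8 (chr7:29180702-29180923), all on the minus strand of GRCm38.p6.
Psmd4: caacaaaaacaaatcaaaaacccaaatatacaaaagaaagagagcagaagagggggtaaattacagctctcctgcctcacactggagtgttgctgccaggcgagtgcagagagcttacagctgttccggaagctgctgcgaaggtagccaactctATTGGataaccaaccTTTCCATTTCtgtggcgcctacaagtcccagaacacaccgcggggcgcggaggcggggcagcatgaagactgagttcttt
Psmd5: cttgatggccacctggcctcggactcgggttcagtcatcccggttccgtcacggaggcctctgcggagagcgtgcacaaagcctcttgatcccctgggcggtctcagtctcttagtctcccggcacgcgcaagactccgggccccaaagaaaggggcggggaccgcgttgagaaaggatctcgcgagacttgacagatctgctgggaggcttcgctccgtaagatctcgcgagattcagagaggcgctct
Psmd8: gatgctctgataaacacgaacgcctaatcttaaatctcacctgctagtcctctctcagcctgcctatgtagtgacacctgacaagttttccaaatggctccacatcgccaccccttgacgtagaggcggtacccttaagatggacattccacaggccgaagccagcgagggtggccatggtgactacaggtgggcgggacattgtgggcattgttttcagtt
Psmd4 held both motifs, Psmd5 and Psmd8 neither. Psmd10 and Psma7, the other members whose rise held in every setting, had CCAAT and not the antioxidant response element letters. For all these members, absence of those letters says only that they are not within the 250 bases. CCAAT was found in 12 of the 31 members (38.7%) against 33.8% of all windows, and the interferon regulatory factor motif in 3 (Psmb3, Psmd4 and Psmd9, 9.68%) against 2.98%.

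The regulators of proteasome genes and the partners of the proteasome moved in both directions, and the counts of rises and falls below stand beside 30.7% and 32.1% of all tested genes (18.6% and 50.8% with total counts alone). Nfe2l1, the factor that raises subunit genes when proteasomes are short, stood at 564, 529.5 and 539 CPM in CRE1 to CRE3 and at 432, 438 and 431 CPM in WT1 to WT3 (0.33, SE 0.030, adjusted p = 9.34e-08). Nfe2l2, the oxidative stress factor that shares its motif, read 197, 212 and 213 CPM against 134, 139.8 and 140.3 CPM (0.59, SE 0.038, adjusted p = 1.80e-09). Both were higher in every knockout library. Ngly1, the glycosidase needed to activate Nfe2l1, fell from 34.1, 32.7 and 33.4 CPM to 25.6, 26.5 and 24.8 CPM (−0.38, SE 0.053). In this list of 6, 5 were tested, with 2 rises and 2 falls.

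Of 5 core activators and their inhibitor, 2 rose and none fell. Psme3, the nuclear activator, read 95.9, 91.6 and 89.7 CPM against 69.6, 67.9 and 71.8 CPM and rose by 0.40 (adjusted p = 5.33e-07), whereas Psme1 (−0.057) and Psme2 (0.0013), the interferon-inducible activator named here after their values were seen, were not called. Psme4 rose by 0.17 with TMM but read −0.039 with total counts alone, and its call was lost without CRE2 (adjusted p = 0.0704) or WT3 (0.0710). Psmf1, the inhibitor, was not called (−0.11), but was without CRE1 (−0.16, adjusted p = 0.0336) and with total counts alone (−0.32). Of 6 tested genes of core assembly and import, 2 rose: the maturation factor Pomp by 0.31 and the chaperone Psmg3 by 0.42, the latter lost without WT1 (0.29, adjusted p = 0.0798). The chaperone Psmg2 was not called (−0.19, adjusted p = 0.0504), but was without CRE2 (−0.23, adjusted p = 0.0391) and with total counts alone (−0.40).

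Of 8 genes tied to the cap, 3 rose (37.5%) and none fell. The ubiquitin ligase Ube3c rose by 0.40, the scaffold Ecpas by 0.39 and the ubiquitin receptor Adrm1 by 0.20, the last reading −0.0077 with total counts alone. Among 14 genes of ubiquitin and its shuttles 6 rose and 3 fell. The polyubiquitin gene Ubb rose from 608, 586 and 595 CPM to 928, 836 and 851 CPM (0.55, SE 0.035, adjusted p = 1.63e-09), and the shuttle Rad23b rose by 0.39. Rps27a, a ubiquitin fused to a ribosomal protein, fell by 0.31. The lists' median log2 fold changes were 0.0013 for the activators, 0.044 for cap partners, 0.063 for ubiquitin genes, 0.090 for the regulators and 0.14 for core assembly, beside 0.14 for the 38 members and −0.021 for all tested genes.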

How the data were processed

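Total RNA of chondrocytes was sequenced, per the labels' protocols; fastp, HISAT2, HTSeq and GRCm39 are named in the submitters' processing notes without versions or roles. The authors deposited whole-number counts and FPKM values for 23867 symbols; each deposited FPKM equals count over column total over 1 length per gene (14764 genes checked, within 0.01 bases). Knockout columns show the group but not which sample. Within a group, no pair of libraries looked like 1 library deposited again (chi-square per degree of freedom 3.19 to 8.09). With R 4.3.3, the counts went into the two-sided quasi-likelihood test of edgeR 4.0.16 with group as the only term, TMM factors and filterByExpr at a minimum count of 10. The biological coefficient of variation was 4.88%. The test was checked on simulated data. Other settings used DESeq2 1.42.0, limma 3.58.1 on voom values and on log2(FPKM + 1) and log2(FPKM + 0.1) at a mean FPKM of at least 1 and log2(FPKM + 1) unfiltered, other size factors and filters, each library left out, and a replicate block. A scaling to core subunits was added after seeing the data.

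The members and lists were chosen with earlier results of these data known. Values in every library are given for the immune subunits, their counterparts and, in each class, the 3 members with the smallest p and those with the extreme fold changes; from other lists, the 3 with the smallest p are named. Paralogs and pseudogene copies can exchange reads. Ifng, Paaf1, Psmb11, Cd3e, Cd3d and Ms4a1 were not analysed here. The result of 1 gene on the list of immune inducers is not reported here. Promoter windows are from RefSeq (GRCm38.p6), as are the motif shares; annotated UTRs are from GENCODE M21.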

Additional observations from a re-analysis of the deposited data

How the results depend on the processing

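The number of genes called over the whole table stayed within 1.5 times of 9430 in every setting. Among proteasome genes, rises and falls numbered 11 and 9 under upper-quartile scaling, against 24.4% and 39.8% of all tested genes. They numbered 5 and 15 under total counts alone, against 18.6% and 50.8%. Each of the 3 fits on log2 FPKM gave 5 and 15 too, against 20.8% and 53.3%, 20.7% and 53.0%, and, unfiltered, 11.3% and 30.7%. Scaled to the 14 constitutive core subunits, a choice added after seeing the data, rises and falls numbered 9 and 9, against 22.0% and 41.9%. Those 14 are among the members and are centred by this scaling, so these counts and the median there were partly set in advance. The members' median log2 fold change was 0.051, −0.068, −0.065, −0.067 and −0.067, and 0.016 in those settings. Falls numbered 1 with DESeq2, with its size factors and with the replicate block, against 18.4%, 31.1% and 31.0% of all genes. The block gave 22 rises, against 29.5%. The column numbers did not pair the libraries: same-numbered deviations correlated at −0.086, 0.055 and −0.095. With 1 library left out, rises ranged from 17 to 22, falls from 1 to 3 and the median from 0.13 to 0.16, at its highest, 0.159, without CRE2. Of all tested genes 27.9% to 31.1% were then called higher and 28.8% to 31.1% lower. The ratios of all 3 immune pairs stayed lower with each library left out and with 1 added to each FPKM.

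With total counts alone or on log2 FPKM, these members and partners took the opposite sign, with values that cover these settings: Psma3 (−0.062, −0.060 and −0.063), Psma5 (−0.070 and −0.068), Psma6 (−0.013), Psmb2 (−0.13), Psmb5 (−0.019 and −0.020), Psmb6 (−0.17), Psmb7 (−0.064 and −0.063), Psmc1 (−0.13), Psmc3 (−0.13), Psmc4 (−0.024 and −0.023), Psmc6 (−0.033, −0.041 and −0.042), Psmd1 (−0.20 and −0.19), Psmd6 (−0.077 and −0.075), Psmd7 (−0.13), Psmd11 (−0.037, −0.035 and −0.036), Psmd12 (−0.065 and −0.067), Psmd13 (−0.11 and −0.10), Psmd14 (−0.078, −0.075 and −0.076), Adrm1 (−0.0077, −0.0078 and −0.0080) and Psme4 (−0.039, −0.042 and −0.045). With upper-quartile factors 6 members took the opposite sign, of which only Psmd1 (−0.080) was called. When scaled to the core 7 did, among them Psmd1 (−0.11), which was called, and Psmd13 (−0.023), called higher with TMM. The median of all genes moved by −0.21 with total counts alone, by −0.15 and −0.17 in the filtered FPKM fits and by −0.00255 in the unfiltered one. Psma8 had too few reads to be kept at a mean FPKM of 1. Depth limits Psma8, at 49 to 98 counts, and Psmb9, at 83 to 248.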

Other observations

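Scaled to the summed counts of the 14 constitutive core subunits (Psma1 to Psma7 and Psmb1 to Psmb7), a view chosen after seeing the data, the cap genes can be read against the barrel. Of the 17 cap subunits 4 were called higher and 3 lower in edgeR's test, against 22.0% and 41.9% of all tested genes. The 6 ATPases had no rise and 2 falls, and the 11 non-ATPases 4 rises and 1 fall. Of the 3 base chaperones 2 were called higher, and all 3 immune subunits were called lower. The barrel genes themselves are centred by this scaling and are not counted in this section.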
